A study of Mus musculus with 16 samples.

Results

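Livers of female and male mice on a normal diet were compared over autosomal genes, those on chromosomes 1 to 19. The comparison used 4 female and 4 male libraries, 8 of the 16 in the series, chosen by their labels, and 13587 autosomal genes with enough counts to test. No measured difference between the sexes entered the choice of libraries or of genes to test. Many of the genes named below were chosen by their measured differences. All animals were wild type (label wt) C57BL/6J mice, an inbred strain, supplied by the Jackson Laboratory. They were 6 weeks old when obtained, were kept in groups under 12 h of light and 12 h of dark, and ate their diet for 10 weeks. The normal diet (LabDiet) had 4.5% of its calories as fat, and the high fat diet (Research Diets) given to the other 4 females and 4 males had 60%. Poly(A) RNA came from powdered whole liver and was sequenced on a NovaSeq instrument after NEBNext Ultra library preparation, and every library is labelled batch 1. The series was designed to test the high fat diet in both sexes, and its normal diet libraries form the baseline of that test. The labels list the replicates as separate samples without naming animals, so p-values measure the spread between libraries. The tests of genes take that spread from all 16 libraries of the series, with 1 mean fitted per sex and diet.

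The liver clears foreign and endogenous compounds in steps. Phase I enzymes, chiefly cytochromes P450, flavin monooxygenases and carboxylesterases, add or expose a reactive group. Phase II enzymes attach sulfate, glucuronic acid, glutathione, a methyl or an acetyl group, and transporters move the products into bile or blood. Mouse liver is known as a sexually dimorphic organ. Pituitary growth hormone reaches it in pulses in males and more steadily in females, and the pattern is read largely through the transcription factor STAT5, with the repressors BCL6 in male liver and CUX2 in female liver. The same organ makes bile acids from cholesterol, oxidises and exports fat, and disposes of amino acid nitrogen as urea.

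Expected counts per library, estimated by the submitters and rounded here to whole numbers, totalled 27566339 to 41420589 in the females and 24569706 to 38843167 in the males (exact two-sided permutation test, p = 0.743). All 8 female and all 8 male libraries of the series matched their label by sex-linked genes. Albumin (Alb) took 8.71% ± 0.331 (SD, n = 4) of the counts in females and 6.47% ± 0.321 in males. Major urinary protein genes took 0.531% ± 0.046 in females and 3.29% ± 0.721 in males. Neither share overlapped between the sexes (exact two-sided permutation p = 0.0286 for each, the smallest possible with 4 against 4, and 0.0857 after adjustment over 6 library measures). Of 9 hepatocyte markers, Ahsg was called higher in females and Serpina1c in males. Summed TPM of 7 stellate cell markers were 189 to 207 in females and 128 to 147 in males. TPM are transcripts per 1000000, an abundance unit that allows for gene length and library size. Lrat and Dcn were called higher in females, and Dcn made up most of the sum (means of 181 and 122 TPM). Of the stellate markers not called, Reln and Des leaned toward females (0.19 and 0.39). Col1a1, Col3a1 and Pdgfrb leaned toward males (-1.14, -0.48 and -0.29). The sum for 7 sinusoidal endothelial markers was 105 to 129 in females and 79.0 to 88.5 in males, with Clec4g called higher in females. That for 7 T and B cell markers was 2.69 to 3.87 against 0.71 to 2.18, with Cd3g called higher in females. Of 6 cholangiocyte markers Sox9 was called higher in males (-1.20 ± 0.26, adjusted p = 0.00468), with summed TPM of 46.8 to 73.1 in females and 40.4 to 59.1 in males. Spp1, not called, made up most of that sum (means of 55.7 and 45.0 TPM). Krt19, not called, leaned toward males (-0.97), whereas Epcam, Krt7 and Spp1 leaned toward females (0.77, 0.55 and 0.29). Of 5 red blood cell markers the X-linked Alas2 was called higher in males (-3.17 ± 0.19, adjusted p = 5.56e-09), with overlapping sums of 821 to 1687 and 1146 to 1798 TPM. None of 7 Kupffer cell markers was called, and the adipocyte markers summed to at most 3.99 TPM. In bulk liver, fewer cells of a type and less RNA per cell cannot be told apart, and the part of cell makeup in the differences below was not tested. Marker genes are named here because they were called, so after their values were seen. The hour of collection is not given in the sources used here.

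Differences were tested per gene with edgeR's quasi-likelihood test, and the 14781 tested genes shared a Benjamini-Hochberg adjustment. A gene is said to be called where its adjusted p is below 0.05, and every adjusted p is from that test unless another test or scale is named. Log2 fold changes are female minus male, with 4 libraries per sex on each diet. They carry a standard error (SE) worked back from the test. It is the log2 fold change without its sign, divided by the square root of the test's F statistic. The spread behind it comes from all 16 libraries. Levels are CPM, counts per 1000000 counts of a library after scaling by edgeR's TMM factors, listed in the order of replicates 1 to 4. Between the sexes 2148 autosomal genes were called, 15.8% of those tested. Of these, 958 (7.05%) were higher in females and 1190 (8.76%) higher in males. The median called gene differed by 0.65 on the log2 scale. Called genes with at least a 2-fold difference numbered 623 (4.59%), with 324 (2.38%) higher in females and 299 (2.2%) higher in males. At least 32-fold differences were found for 29 genes higher in females and 38 higher in males. The libraries of the sexes did not overlap for 3035 genes (22.3%), females being above for 1353 (9.96%) and males for 1682 (12.4%). The count of called genes fell to 1214 without female replicate 2, to 1267 without male replicate 3 and to 1408 without female replicate 1. On the log2(TPM + 0.1) scale, 946 of 1723 calls (54.9%) were higher in females, against 44.6% in the count test.

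**Figure D1:**
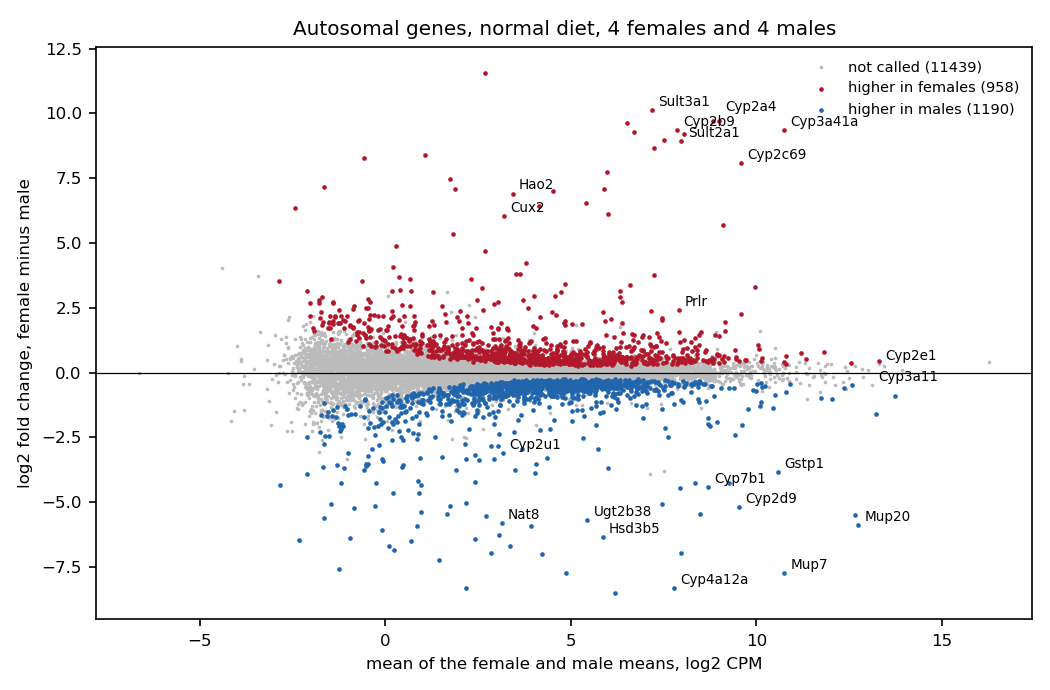
Each point is 1 autosomal gene: the x axis is the mean of the female and male mean levels (log2 CPM, with 0.01 CPM added) and the y axis the log2 fold change, female minus male, on the normal diet (4 libraries per sex). Red points are the 958 genes called higher in females, blue points the 1190 called higher in males and grey points the 11439 not called. Most named genes lie far from 0, at both high and low levels, while Cyp3a11 and Cyp2e1, not called, lie near it.

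Genes were grouped into 34 lists of pathways, enzyme families and regulators, which hold 746 tested autosomal genes. Of those, 152 were called higher in females and 94 higher in males, 33.0% against 15.8% of all genes. Phase II enzymes had the highest share of the broad groups, with 39 of 75 called (52%), 25 of them higher in females. Phase I enzymes followed with 53 of 123 (43.1%), 34 higher in females and 19 in males. Among transporters 16 of 41 were called (39.0%), and among genes of lipid metabolism 55 of 179 (30.7%, 43 higher in females). Amino acid metabolism had 20 of 92 called (21.7%), and carbohydrate metabolism 3 of 33 (9.09%), a share below that of all genes. The median log2 fold change over all tested autosomal genes was -0.0032. These shares are descriptions, since the lists were written with earlier results of these data known.

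**Figure D2:**
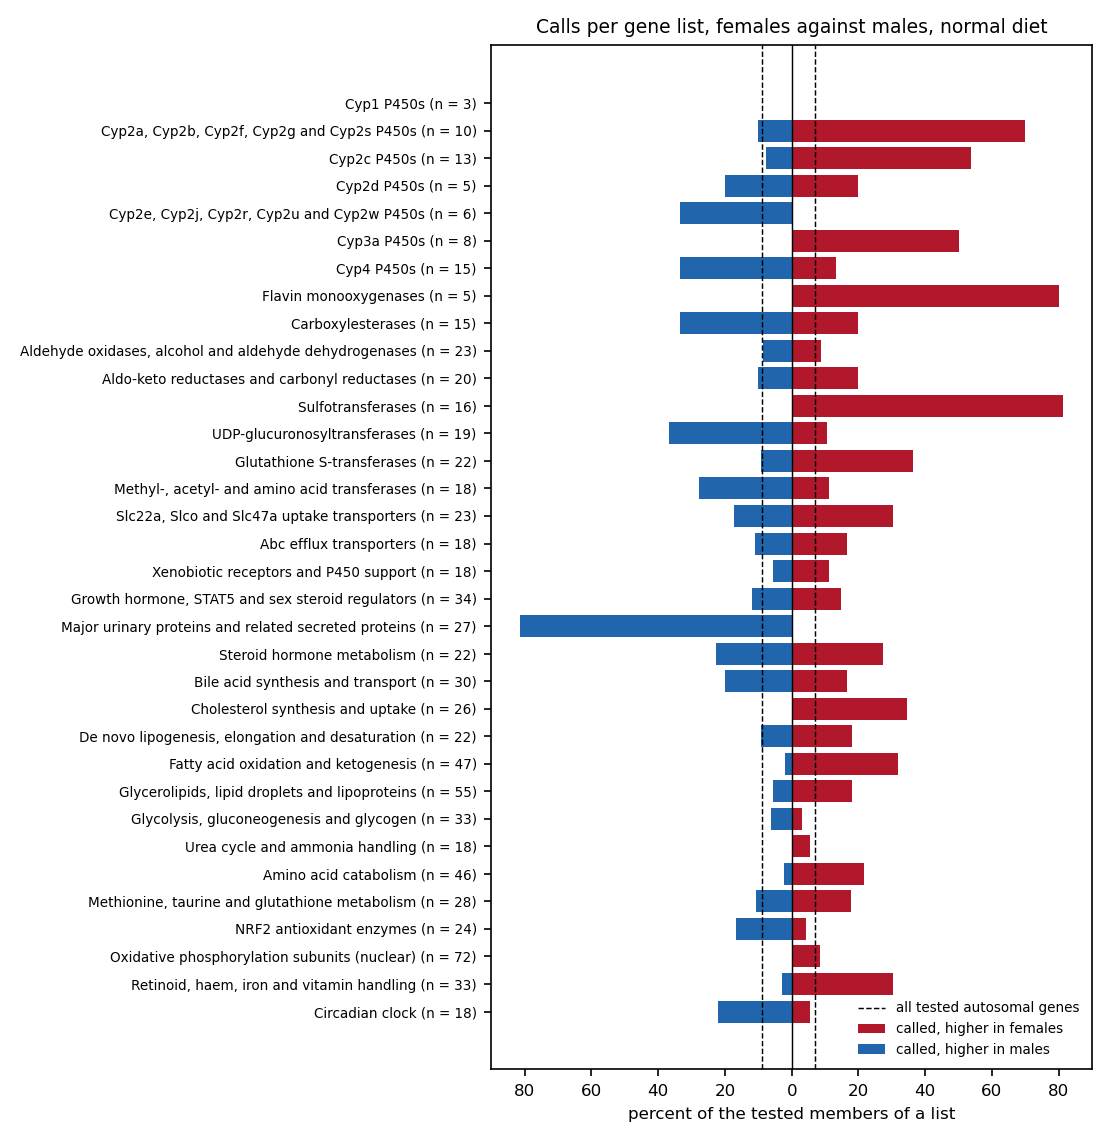
Bars give, for each list, the percent of its tested members called higher in females (red, to the right) and higher in males (blue, to the left) on the normal diet, with the number tested in brackets. Dashed lines mark the percents over all tested autosomal genes, 7.05% and 8.76%; the bar of the sulfotransferases reaches farthest to the right and that of the major urinary and related secreted proteins farthest to the left.

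Close relatives within an enzyme family could give very different sex differences, and the promoters of 2 such pairs are shown because their sequences near the start site are alike. The sequences run from 250 bases before to 50 bases after the start, 5′ to 3′ on the gene's strand, from RefSeq on build GRCm38.p6. Capitals mark bases that differ from, or face a gap against, the partner in the same pair. Cyp2a4 (chr7:26306942-26307241, plus strand) and Cyp2a5 (chr7:26835089-26835388, plus strand) were identical in 97.7% of aligned columns, with 5 mismatches and 2 gap columns.
Cyp2a4: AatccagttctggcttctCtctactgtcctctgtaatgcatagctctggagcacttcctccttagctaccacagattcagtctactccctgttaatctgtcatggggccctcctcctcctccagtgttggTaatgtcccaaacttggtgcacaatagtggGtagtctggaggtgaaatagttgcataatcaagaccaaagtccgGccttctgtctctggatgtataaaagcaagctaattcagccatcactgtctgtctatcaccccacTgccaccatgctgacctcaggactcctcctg
Cyp2a5: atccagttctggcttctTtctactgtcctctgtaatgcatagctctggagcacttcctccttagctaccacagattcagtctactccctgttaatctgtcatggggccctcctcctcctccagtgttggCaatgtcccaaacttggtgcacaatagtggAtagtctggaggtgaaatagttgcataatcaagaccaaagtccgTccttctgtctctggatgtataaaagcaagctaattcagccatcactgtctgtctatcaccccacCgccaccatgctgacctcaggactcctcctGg
Cyp2d9 (chr15:82452127-82452426, plus strand) and Cyp2d10 (chr15:82407145-82407444, minus strand) were identical in 82.9% of columns, with 44 mismatches and 8 gap columns.
Cyp2d9: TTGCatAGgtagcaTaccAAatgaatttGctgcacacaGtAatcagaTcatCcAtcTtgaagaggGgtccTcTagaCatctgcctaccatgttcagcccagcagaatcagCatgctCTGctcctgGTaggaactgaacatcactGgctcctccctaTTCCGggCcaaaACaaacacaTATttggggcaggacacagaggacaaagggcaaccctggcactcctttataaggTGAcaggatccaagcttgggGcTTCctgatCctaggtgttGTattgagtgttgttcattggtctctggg
Cyp2d10: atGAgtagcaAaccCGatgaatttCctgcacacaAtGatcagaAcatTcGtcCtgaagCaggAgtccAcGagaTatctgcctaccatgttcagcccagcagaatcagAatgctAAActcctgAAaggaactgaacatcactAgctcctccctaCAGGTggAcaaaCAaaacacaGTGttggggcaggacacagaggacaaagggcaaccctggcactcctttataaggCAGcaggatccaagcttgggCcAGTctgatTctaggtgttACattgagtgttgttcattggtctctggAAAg
Cyp2a4 was called higher in females with a log2 fold change of 9.69 ± 0.65, whereas Cyp2a5 had 0.55 ± 0.35 (adjusted p = 0.299). Cyp2d9 was called higher in males at -5.17 ± 0.25, whereas Cyp2d10, chosen after its values were seen, had 0.03 ± 0.13 (adjusted p = 0.902). The contrast within each pair was not itself tested. Other pairs aligned the same way were mixed. Cyp2b9 and Cyp2b13 were identical in 99.3% of columns, and both were called higher in females (9.36 and 8.96). Cyp3a41a and Cyp3a44 were identical in 93.0% of columns, and both were called higher in females (9.37 and 9.65). Ugt2b38 and Ugt2b5 were identical in 84.2% of columns and both called higher in males, but by unlike amounts (-5.71 and -0.73). Slc22a26 and Slc22a27, identical in only 46.3% of columns, were both called higher in females (8.67 and 7.00). Slc22a27 and Slc22a28, identical in 45.6%, had opposite signs (7.00 and -3.77).

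The STAT5 motif TTCNNNGAA, which reads the same on both strands, was searched in the same windows. It was present in 10.8% of the 213 genes with a promoter in the table among those at least 2-fold higher in females, and in 5.61% of the 196 at least 2-fold higher in males. These shares stand for 23 and 11 genes. Of all 10217 tested autosomal genes with a promoter, 8.61% held it, as did 9.55% of all genes with a promoter of this length in the table. Counted by promoter, the shares were 8.24% for the female-higher and 4.74% for the male-higher genes. They were 7.13% for all tested autosomal genes and 8.30% for all promoters in the table. Promoters were found for 138 of the 186 genes that the naming rule covers. Sult3a1 (chr10:33857472-33857771, plus strand) and Slc22a26 (chr19:7802618-7802917, minus strand), both called higher in females, are printed as examples of a match, in capitals, that begins at -109 and -141 from the start.
Sult3a1: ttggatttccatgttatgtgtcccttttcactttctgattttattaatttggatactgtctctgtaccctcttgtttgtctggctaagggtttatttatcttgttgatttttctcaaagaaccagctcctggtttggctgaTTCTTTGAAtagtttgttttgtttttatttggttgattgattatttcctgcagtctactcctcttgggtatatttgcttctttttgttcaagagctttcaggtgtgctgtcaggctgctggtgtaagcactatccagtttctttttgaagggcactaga
Slc22a26: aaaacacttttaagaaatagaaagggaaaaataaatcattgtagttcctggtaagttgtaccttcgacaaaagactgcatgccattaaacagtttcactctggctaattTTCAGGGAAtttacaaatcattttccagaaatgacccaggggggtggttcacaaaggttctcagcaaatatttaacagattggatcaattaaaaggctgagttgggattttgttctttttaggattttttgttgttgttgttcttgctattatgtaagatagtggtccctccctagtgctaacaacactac
Keg1 and Moxd1, both called higher in males, held a match too. A match of letters is a description and not a measured binding site.

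Some of the largest female-higher P450s belong to the Cyp2a and Cyp2b subfamilies, which oxidise steroids and many drugs. Among the Cyp2a, Cyp2b, Cyp2f, Cyp2g and Cyp2s genes, 7 of 10 tested members were called higher in females and 1 in males (median log2 fold change over the tested members 2.55). Cyp2a4 (ENSMUSG00000074254.5, chromosome 7), a steroid hydroxylase, read 982, 1069.6, 1129.9 and 878 CPM in the females and 0.947, 1.17, 0.346 and 2.22 CPM in the males. Every female library was far above every male library (log2 fold change 9.69 ± 0.65, adjusted p = 4.59e-07). Cyp2a5, the coumarin hydroxylase whose promoter resembles it, read 2171, 2091, 1432 and 1207 CPM in females and 1614, 992, 879 and 1212 CPM in males, and the sexes overlapped. Cyp2b9 (ENSMUSG00000040660.7, chromosome 7) read 431, 527, 488 and 425 CPM in females and 0.329, 0.571, 0 and 1.68 CPM in males (9.36 ± 1.26, adjusted p = 4.3e-04). Cyp2b13, its close relative, read 353, 392, 395 and 305 CPM in females and 0.535, 0.200, 0 and 1.92 CPM in males (8.96 ± 0.85, adjusted p = 2.06e-05), so both were nearly absent from male liver. Cyp2b10, the classical phenobarbital-inducible P450, was measurable in both sexes, at 48.3, 46.2, 30.0 and 44.0 CPM in females and 7.08, 4.57, 5.14 and 4.79 CPM in males. Its difference of 2.97 ± 0.66 was smaller but called (adjusted p = 0.00939), and the sexes did not overlap. Cyp2f2, which oxidises naphthalene, went the other way with 708, 778, 830.5 and 791 CPM in females and 1237, 1307, 1292 and 1189 CPM in males (-0.69 ± 0.09, adjusted p = 1.01e-04).

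Reads of near-identical copies are divided by the counting program, so the split within a subfamily is uncertain and sums over the subfamily were tested as well. Summed over Cyp2b9, Cyp2b10 and Cyp2b13, females had 833, 964, 916 and 773 CPM and males 7.91, 5.31, 5.10 and 8.42 CPM, a called difference of 7.02 ± 1.00 (adjusted p = 7.03e-04). Summed over Cyp2a4, Cyp2a5 and Cyp2a22, females had 3251, 3251, 2646 and 2146 CPM and males 1608, 989, 873 and 1220.4 CPM (1.27 ± 0.29, adjusted p = 0.0084). Cyp2a5 made up much of the Cyp2a sum in both sexes: on the TPM scale, which allows for length, females had 793 ± 119 TPM of Cyp2a4 and 1116 ± 256 TPM of Cyp2a5 (mean ± SD). Males had 0.910 ± 0.606 and 756 ± 167 TPM.

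Cyp2c enzymes metabolise arachidonic acid, steroids and drugs, and 7 of 13 tested members were called higher in females and 1 in males (median log2 fold change over the tested members 1.44). Cyp2c69 (ENSMUSG00000092008.3, chromosome 19) read 1998, 1236, 1528 and 1316 CPM in females and 8.40, 4.57, 2.68 and 6.71 CPM in males. Female libraries were all above 1000 CPM and male libraries all below 10 CPM (log2 fold change 8.08 ± 0.64, adjusted p = 2.85e-06). Cyp2c40 showed 1078, 827, 1190.3 and 1218 CPM in females and 35.9, 17.5, 12.8 and 16.1 CPM in males (5.71 ± 0.40, adjusted p = 3.2e-07). Cyp2c29, a phenobarbital-inducible member, read 1644, 1850.0, 1501 and 1597 CPM in females and 1669.9, 1202, 1628 and 1428 CPM in males, with overlap of the sexes (0.15 ± 0.34, adjusted p = 0.802). The sum over the subfamily was 10299, 9325, 9279.8 and 9981 CPM in females and 5067, 3396, 4321 and 4305 CPM in males, so total Cyp2c RNA was higher in every female (1.19 ± 0.20, adjusted p = 7.92e-04).

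Cyp3a enzymes carry much of hepatic drug oxidation. Here 4 of 8 tested members were called, all higher in females (median log2 fold change over the tested members 3.57). Cyp3a41a (ENSMUSG00000075551.5, chromosome 5) read 3750.1, 3856, 2743 and 3229 CPM in females and 2.68, 3.48, 0.648 and 13.3 CPM in males (9.37 ± 0.98, adjusted p = 4.72e-05). Cyp3a44 read 189.9, 239, 80.6 and 218 CPM in females and 0.0824, 0.400, 0.0432 and 0.271 CPM in males (9.65 ± 1.00, adjusted p = 4.72e-05), with female replicate 3 the lowest of the females. Cyp3a11, the main constitutive form, read 7327, 7604, 7212 and 7527 CPM in females and 9756, 10849, 9764 and 10988 CPM in males. All males lay above all females, yet the difference of -0.48 ± 0.37 was not called in the fit of all 16 libraries (adjusted p = 0.41). With only the 8 normal diet libraries in the fit, Cyp3a11 was called higher in males (-0.47, adjusted p = 0.00619). The 8 tested Cyp3a genes together gave 12839, 13458, 11249.7 and 12581 CPM in females and 10899.5, 12367, 11253 and 12392 CPM in males, and the sum did not separate the sexes (0.10 ± 0.24, adjusted p = 0.83). In TPM, Cyp3a11 accounted for 4059 ± 222 and Cyp3a41a for 2144 ± 191 in females, against 5639 ± 526 and 3.16 ± 3.54 in males.

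Cyp2d9, Cyp2u1 and the Cyp4a12 pair were higher in every male than in any female. Cyp2d9 (ENSMUSG00000068086.7, chromosome 15), a testosterone hydroxylase, read 34.1, 30.3, 48.0 and 45.6 CPM in females and 1685, 895, 1514 and 1612 CPM in males. Its lowest male library, replicate 2, was still far above every female (-5.17 ± 0.25, adjusted p = 1.83e-10). Cyp2d10 read 651, 651, 619 and 633 CPM in females and 736, 495, 621 and 648 CPM in males, with overlap. Cyp2d26 ran the other way at 952, 994, 931 and 951 CPM in females and 724, 619, 754 and 631 CPM in males (0.49 ± 0.12, adjusted p = 0.0133). The Cyp2d sum was 1815, 1854, 1772 and 1795 CPM in females and 3329.6, 2133, 3054 and 3066 CPM in males (-0.68 ± 0.14, adjusted p = 0.00414). Cyp2u1, a fatty acid hydroxylase, read 2.11, 1.78, 2.16 and 1.49 CPM in females and 17.3, 18.1, 16.2 and 12.6 CPM in males (-3.10 ± 0.31, adjusted p = 6.68e-06). Cyp2e1, which oxidises ethanol and paracetamol, overlapped between the sexes, at 11227, 11399, 10357 and 11696 CPM in females and 11011, 6355, 8522 and 9950.2 CPM in males (0.32 ± 0.18, adjusted p = 0.243).

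Cyp4 enzymes hydroxylate fatty acids at the end of the chain, and 2 of 15 tested members were called higher in females and 5 in males (median log2 fold change over the tested members -0.06). Cyp4a12a (ENSMUSG00000066071.7, chromosome 4), the main maker of the vasoactive eicosanoid HETE in male mice, read 1.08, 0.368, 3.00 and 1.11 CPM in females and 392, 393, 490.1 and 470.1 CPM in males (-8.32 ± 0.67, adjusted p = 4.18e-06). Its copy Cyp4a12b read 0.445, 0.337, 0.512 and 0.329 CPM in females and 102, 169, 153 and 162 CPM in males (-8.51 ± 0.72, adjusted p = 7.1e-06). Their sum, free of the split between copies, differed by -8.36 ± 0.61 (adjusted p = 1.34e-06). Cyp4a14, a target of the fatty acid sensor PPARA, had the opposite sign, with 1113, 1813, 1504 and 2752 CPM in females and 94.1, 225, 45.0 and 371 CPM in males (3.29 ± 0.93, adjusted p = 0.031). Cyp4a14 was no longer called without female replicates 2 or 4 or without male replicates 1, 2 or 3 or with no filter on low counts (adjusted p from 0.0645 to 0.0814). The sum of Cyp4a10, Cyp4a14, Cyp4a31 and Cyp4a32 was not called (2.17 ± 0.71, adjusted p = 0.0566), but was called without male replicate 4 (2.68, adjusted p = 0.0472) and with only the 8 normal diet libraries in the fit (adjusted p = 0.0220). None of the 3 Cyp1 genes was called, and Cyp1a2, which oxidises caffeine and aromatic amines, read 497, 430.3, 395 and 345 CPM in females and 563, 282, 385 and 388 CPM in males (0.04 ± 0.28, adjusted p = 0.936).

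**Figure D3:**
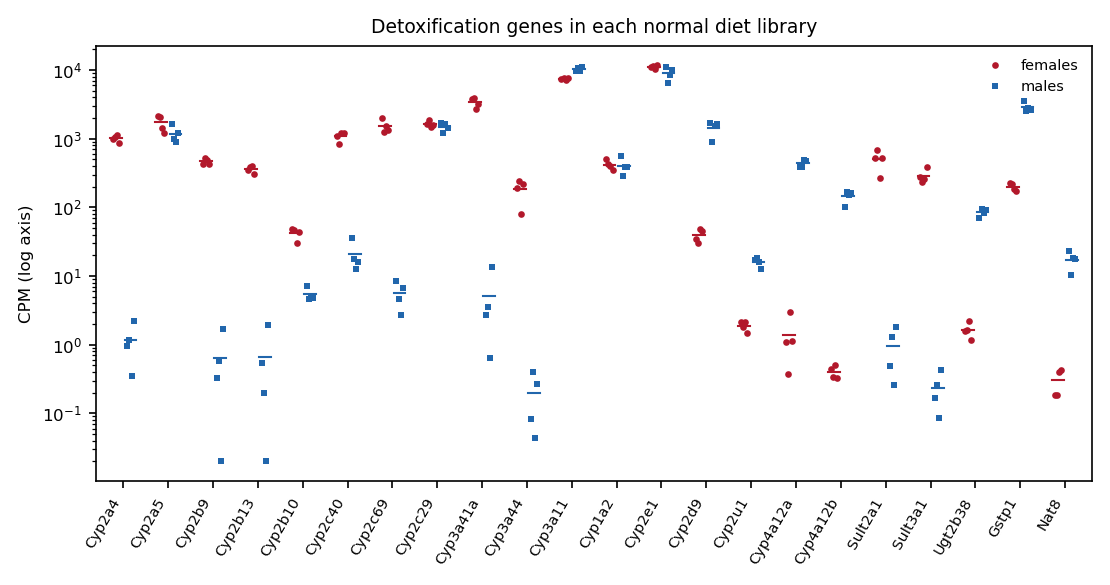
Level of 22 detoxification genes in each normal diet library (CPM, log axis): red circles are the 4 females, blue squares the 4 males and short bars the means; values below 0.02 CPM are drawn at 0.02. Cyp2a4, Cyp2b9, Cyp2b13, Cyp3a41a, Sult2a1 and Sult3a1 separate upward in females, Cyp2d9, Cyp4a12a, Ugt2b38, Gstp1 and Nat8 upward in males, and Cyp2a5, Cyp2c29, Cyp1a2 and Cyp2e1 overlap.

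Flavin monooxygenases oxidise nitrogen and sulfur in drugs and diet-derived amines, and 4 of 5 tested members were called, all higher in females (median log2 fold change over the tested members 0.83). Fmo2 read 85.8, 104, 89.3 and 107 CPM in females and 25.4, 20.2, 19.9 and 32.6 CPM in males (1.98 ± 0.42, adjusted p = 0.0067). Fmo1, which can also oxidise hypotaurine, read 356, 391, 403 and 436 CPM in females and 229, 192, 220.4 and 252 CPM in males (0.83 ± 0.18, adjusted p = 0.00576).

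Carboxylesterases hydrolyse esters in drugs and lipids, and 3 of 15 tested members were called higher in females and 5 in males (median log2 fold change over the tested members -0.16). Ces3a, a microsomal triacylglycerol hydrolase, read 770.3, 769, 811 and 775 CPM in females and 2306, 1589, 2056 and 2037 CPM in males (-1.35 ± 0.13, adjusted p = 2.74e-06). Ces1c, the esterase secreted into plasma, was higher in every female, with 4612, 5239.6, 4202 and 4361 CPM against 2921, 2739, 2506 and 2509.8 CPM (0.79 ± 0.15, adjusted p = 0.00249). Family sums pointed different ways: Ces1 gave 0.75 ± 0.21 (adjusted p = 0.0233), Ces2 -0.33 ± 0.13 (adjusted p = 0.0993) and Ces3 -1.16 ± 0.14 (adjusted p = 2.74e-05). The Ces1 sum was no longer called without female replicate 2 or without male replicates 2, 3 or 4 (adjusted p from 0.0583 to 0.0715). Carboxylesterase calls numbered 4 without female replicates 1 or 2 or without male replicate 3 and 5 without male replicate 4.

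The aldehyde oxidase genes Aox3 and Aox1 were called higher in males. In the list of aldehyde oxidases with alcohol and aldehyde dehydrogenases, 2 of 23 tested members were called higher in females and 2 in males (median log2 fold change over the tested members -0.04). That called share of 17.4% was near the 15.8% of all tested autosomal genes. Aox3, a liver aldehyde oxidase, read 198, 178, 251 and 197 CPM in females and 823, 737, 748 and 805 CPM in males (-1.92 ± 0.17, adjusted p = 6.67e-07). Aox1 showed the same order at 34.1, 32.3, 52.0 and 41.9 CPM and 117, 98.4, 109 and 106 CPM (-1.42 ± 0.22, adjusted p = 4.72e-04). Calls in that enzyme list numbered 7 with DESeq2's Wald test and 8 with only the 8 normal diet libraries in the fit. Among aldo-keto reductases, carbonyl reductases and epoxide hydrolases, 4 of 20 tested members were called higher in females and 2 in males (median log2 fold change over the tested members 0.12). Ephx1, the microsomal epoxide hydrolase, read 247, 364, 326 and 351 CPM in females and 635, 559, 562 and 629 CPM in males, so its lowest male exceeded its highest female (-0.89 ± 0.20, adjusted p = 0.00637). The Akr1c sum was 0.10 ± 0.18 (adjusted p = 0.761).

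Sulfotransferases transfer sulfate to steroids, bile acids and phenols, and 13 of 16 tested members were called, all higher in females (median log2 fold change over the tested members 2.01). Sult3a1 (ENSMUSG00000069668.5, chromosome 10), whose promoter is printed above, read 278, 237, 262 and 384 CPM in females and 0.165, 0.257, 0.0864 and 0.433 CPM in males (10.13 ± 0.85, adjusted p = 7.23e-06). Sult3a2 read 12.8, 10.2, 12.4 and 16.2 CPM in females and had no count in any male library. Against a floor of 3 counts per male library, it was at least 123-fold higher in females (adjusted p = 0.0109). Sult2a1 (ENSMUSG00000078798.5, chromosome 7), which sulfates bile acids and steroids, read 528, 692, 264 and 528 CPM in females and 0.494, 1.28, 0.259 and 1.81 CPM in males (8.93 ± 0.66, adjusted p = 1.54e-06). Every female library exceeded every male library for these 3 genes. Sult2a2 read 549, 638, 415 and 494 CPM in females and 0.288, 0.428, 0.173 and 2.35 CPM in males (9.21 ± 0.66, adjusted p = 1.08e-06). The sum of the Sult2a family differed far less, by 0.70 ± 0.20 (adjusted p = 0.0238), at 3078, 2922, 2254 and 2672 CPM in females and 2263, 1249.5, 1364 and 1835 CPM in males. The Sult2a sum was no longer called without female replicates 1 or 2 or without male replicates 2 or 3 (adjusted p from 0.0663 to 0.0909). Sult1e1, the estrogen sulfotransferase, was scarce in both sexes, at 2.08, 2.39, 0.951 and 2.13 CPM in females and 0.288, 0.685, 0.302 and 0.135 CPM in males, and was called higher in females (2.39 ± 0.47, adjusted p = 0.00237).

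Glucuronosyltransferases were divided by subfamily, and 2 of 19 tested members were called higher in females and 7 in males (median log2 fold change over the tested members -0.09). Ugt2b38 (ENSMUSG00000061906.6, chromosome 5) read 1.59, 1.62, 2.23 and 1.17 CPM in females and 70.5, 95.3, 83.3 and 92.8 CPM in males (-5.71 ± 0.75, adjusted p = 3.15e-04). Ugt2b1, an abundant steroid and drug conjugator, read 471, 505, 513 and 455 CPM in females and 1224, 1175, 1358 and 1335 CPM in males (-1.39 ± 0.17, adjusted p = 3.11e-05). Ugt1a1, the bilirubin-conjugating enzyme, was higher in females at 1357, 1534, 1329.6 and 1372 CPM against 889, 512, 774 and 828 CPM (0.90 ± 0.19, adjusted p = 0.00414). Ugt1a genes share their last exons, so reads there cannot be assigned to 1 of them. The Ugt1a sum was higher in females (0.62 ± 0.17, adjusted p = 0.0191), and the Ugt2b sum higher in males (-0.67 ± 0.12, adjusted p = 0.00173). The Ugt1a sum was no longer called without female replicate 2 or without male replicate 2 (adjusted p from 0.0532 to 0.0566).

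Glutathione S-transferases detoxify electrophiles, and 8 of 22 tested members were called higher in females and 2 in males (median log2 fold change over the tested members 0.33). Gstp1 (ENSMUSG00000060803.7, chromosome 19) read 226, 215, 185 and 171 CPM in females and 3589.7, 2499, 2835 and 2609 CPM in males (-3.85 ± 0.41, adjusted p = 2.32e-05). Gstp2, a close copy of Gstp1 with which it can share reads, was the other member called higher in males, with 1.93, 1.62, 2.31 and 1.22 CPM in females and 12.5, 15.1, 14.1 and 8.34 CPM in males (-2.83 ± 0.43, adjusted p = 4.52e-04). Gstt1 read 265, 255, 224 and 214 CPM in females and 131, 81.8, 98.4 and 100.2 CPM in males (1.22 ± 0.22, adjusted p = 0.00141). The Gstm sum was not called (-0.27 ± 0.16, adjusted p = 0.265). For methyl, acetyl and amino acid transferases, 2 of 18 tested members were called higher in females and 5 in males (median log2 fold change over the tested members -0.02). Nat8 (ENSMUSG00000030004.7, chromosome 6), which acetylates cysteine conjugates in mercapturate formation, read 0.185, 0.184, 0.403 and 0.431 CPM in females and 22.9, 10.3, 18.4 and 17.5 CPM in males (-5.80 ± 0.27, adjusted p = 1.28e-10). Tpmt, which methylates thiopurine drugs, read 29.6, 36.8, 29.3 and 35.5 CPM in females and 62.8, 53.6, 56.9 and 55.4 CPM in males (-0.80 ± 0.12, adjusted p = 2.26e-04). For Gstp1, Gstp2, Nat8 and Tpmt the lowest male exceeded the highest female. Keg1, a glycine acyltransferase relative, read 69.5, 71.5, 113 and 130.1 CPM in females and 279.6, 223, 218 and 292 CPM in males (-1.40 ± 0.26, adjusted p = 0.00222).

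Uptake carriers of the Slc22a, Slco and Slc47a families bring organic anions and cations into hepatocytes, and 7 of 23 tested members were called higher in females and 4 in males (median log2 fold change over the tested members 0.15). Slc22a26, an organic anion carrier, read 329, 353, 275 and 258 CPM in females and 0.659, 0.656, 0.130 and 1.35 CPM in males (8.67 ± 0.73, adjusted p = 6.47e-06). Slc22a27 read 47.9, 52.1, 44.4 and 36.5 CPM in females and 0.329, 0.342, 0.259 and 0.433 CPM in males (7.00 ± 0.71, adjusted p = 3.41e-05). Slc22a28, in the same gene cluster on chromosome 19, had the opposite sign, with 1.93, 0.644, 2.23 and 1.39 CPM in females and 28.0, 17.9, 18.3 and 19.5 CPM in males (-3.77 ± 0.30, adjusted p = 3.6e-07). Slco1a1, a carrier of bile acids and steroid conjugates, read 171, 139, 190.4 and 173 CPM in females and 849, 463, 611 and 859.8 CPM in males (-2.05 ± 0.59, adjusted p = 0.0333). Slco1a1 was no longer called without female replicates 1, 2, 3 or 4 or without male replicates 1, 3 or 4 or with no filter on low counts (adjusted p from 0.0574 to 0.0961). Uptake carrier calls numbered 5 without female replicate 2, 6 without female replicate 4 or without male replicates 3 or 4 and 7 without female replicate 1 or without male replicate 2.

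ATP-driven efflux pumps export conjugates into bile and blood, and 3 of 18 tested members were called higher in females and 2 in males (median log2 fold change over the tested members 0.04). Abcg2, the breast cancer resistance protein, read 63.1, 73.4, 76.6 and 64.2 CPM in females and 179, 126, 183 and 194 CPM in males (-1.30 ± 0.18, adjusted p = 1.5e-04). Abcb1a, a P-glycoprotein, read 24.7, 28.4, 26.1 and 17.5 CPM in females and 2.92, 5.88, 4.49 and 3.76 CPM in males (2.49 ± 0.40, adjusted p = 0.00107). Neither pump overlapped between the sexes, and their signs were opposite. Abcc4, an exporter of sulfated steroids and bile acids to the blood, read 9.19, 9.75, 8.09 and 6.54 CPM in females and 3.13, 5.22, 3.02 and 3.60 CPM in males (1.15 ± 0.20, adjusted p = 9.53e-04). Of the sterol-exporting pair, Abcg5 was higher in females (125, 138, 126 and 128 CPM against 91.6, 93.0, 78.9 and 77.1 CPM, 0.61 ± 0.13, adjusted p = 0.00407). Abcg8, with 99.8, 113, 114 and 116 CPM in females and 103, 98.0, 77.4 and 82.4 CPM in males, overlapped (0.30 ± 0.15, adjusted p = 0.196).

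Over xenobiotic receptors and P450 support genes, 2 of 18 tested members were called higher in females and 1 in males (median log2 fold change over the tested members 0.02), a called share of 16.7% against 15.8% of all tested genes. Nr1i2 encodes the pregnane X receptor, a sensor of steroids and drugs, and read 95.8, 108, 101 and 92.6 CPM in females and 75.8, 77.9, 76.1 and 67.8 CPM in males (0.42 ± 0.10, adjusted p = 0.00908). Nr1i3, the constitutive androstane receptor, read 232, 202, 236 and 219.7 CPM in females and 185, 93.8, 177 and 147 CPM in males. Males were lower in every library, but the difference of 0.57 ± 0.23 was not called (adjusted p = 0.0972). With only the 8 normal diet libraries in the fit, Nr1i3 was called higher in females (adjusted p = 0.0372). Por, which passes electrons to microsomal P450s, read 699, 839, 717 and 791 CPM in females and 587, 666, 611 and 630.2 CPM in males (0.29 ± 0.13, adjusted p = 0.145). The hepatocyte factor Hnf4a read 569, 561, 546 and 553 CPM in females and 576, 693, 827 and 710.3 CPM in males (-0.33 ± 0.11, adjusted p = 0.0568), and Ppara had 0.14 ± 0.30 (adjusted p = 0.788). Without male replicate 1, Hnf4a was called higher in males (-0.41, adjusted p = 0.018), as it was with DESeq2's Wald test (adjusted p = 0.0193). Calls among these receptors and support genes numbered 1 without female replicate 1 or without male replicates 2 or 3.

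Among regulators linked to growth hormone, STAT5 and sex steroids, 5 of 34 tested members were called higher in females and 4 in males (median log2 fold change over the tested members -0.03). Cux2 (ENSMUSG00000042589.19, chromosome 5), a repressor of male-biased genes, read 22.5, 20.2, 12.7 and 16.3 CPM in females and 0.206, 0.428, 0 and 0.352 CPM in males (6.03 ± 0.36, adjusted p = 8.81e-09). Prlr, the prolactin receptor, read 428, 402, 407 and 378 CPM in females and 77.9, 70.4, 61.9 and 95.7 CPM in males (2.40 ± 0.26, adjusted p = 1.47e-05). Esr1, the estrogen receptor alpha gene, read 67.3, 73.6, 70.7 and 69.1 CPM in females and 28.2, 42.9, 30.6 and 31.2 CPM in males (1.08 ± 0.13, adjusted p = 3.72e-05). Trim24, a nuclear receptor cofactor, read 78.7, 80.3, 83.8 and 84.9 CPM in females and 45.0, 30.7, 52.8 and 60.7 CPM in males (0.79 ± 0.15, adjusted p = 0.00227). Tox, a high mobility group box factor, read 18.9, 12.2, 13.5 and 14.2 CPM in females and 4.45, 4.14, 4.49 and 5.09 CPM in males (1.69 ± 0.24, adjusted p = 2.2e-04). Foxa1, a pioneer factor, was higher in males at 17.8, 22.1, 24.6 and 14.9 CPM against 9.64, 8.25, 11.2 and 9.52 CPM (-1.04 ± 0.19, adjusted p = 0.00168). No library of either sex overlapped for these 6 regulators. Calls among the growth hormone regulators numbered 15 with only the 8 normal diet libraries in the fit.

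Bcl6, Stat5b, Ghr, Igf1 and Socs2, which carry or answer the growth hormone signal, were not called. Bcl6 read 12.5, 14.1, 8.53 and 5.85 CPM in females and 9.88, 9.36, 7.69 and 38.7 CPM in males, and only male replicate 4 stood above the females (-0.69 ± 0.48, adjusted p = 0.362). Stat5b read 34.9, 42.9, 39.4 and 40.0 CPM in females and 31.8, 31.8, 33.7 and 25.9 CPM in males, without overlap (0.35 ± 0.13, adjusted p = 0.0767). The growth hormone receptor gene Ghr overlapped, at 689, 755, 637 and 605 CPM and 806, 644, 710.4 and 724 CPM (-0.10 ± 0.17, adjusted p = 0.724). The sexes also overlapped for Igf1, the hormone made under growth hormone (0.08 ± 0.16, adjusted p = 0.774), and for Socs2, its feedback inhibitor (0.39 ± 0.45, adjusted p = 0.607). On the TPM scales, which allow for transcript length, Igf1 was called higher in females (0.42 on both, adjusted p = 0.0144 with log2(TPM + 0.1) and 0.0147 with log2(TPM + 1)), at 459 ± 40.97 TPM against 342 ± 15.9 TPM in males (mean ± SD, n = 4). With only the 8 normal diet libraries in the fit, Stat5b was called higher in females (0.36, adjusted p = 0.0283).

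Major urinary proteins bind pheromones in urine and are a classical product of male mouse liver. Of 27 tested genes for these and related secreted proteins, 22 were called higher in males and none in females, with a median log2 fold change of -3.74. Mup20 (ENSMUSG00000078672.3, chromosome 4), the pheromone darcin, read 226, 194, 258 and 236 CPM in females and 14753, 12322, 13335 and 13508 CPM in males (-5.88 ± 0.41, adjusted p = 1.68e-07). Mup7 read 15.5, 11.8, 22.8 and 14.3 CPM in females and 4287, 1777, 3851 and 3716 CPM in males (-7.73 ± 0.85, adjusted p = 7.18e-05). Mup genes are near-identical copies, and their sum was 5694, 6214, 5228 and 4995 CPM in females and 43684, 24230.0, 35559 and 36095 CPM in males (-2.66 ± 0.26, adjusted p = 2.42e-06). C6, a component of the complement membrane attack complex, read 19.7, 23.1, 24.3 and 18.5 CPM in females and 405, 462, 522 and 478 CPM in males (-4.45 ± 0.37, adjusted p = 1.76e-06).

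Enzymes of steroid hormone metabolism were called in both directions, and 6 of 22 tested members were called higher in females and 5 in males (median log2 fold change over the tested members -0.07). Cyp7b1 (ENSMUSG00000039519.7, chromosome 3), which hydroxylates oxysterols and steroids, read 36.4, 42.5, 36.5 and 34.4 CPM in females and 864, 749.5, 679 and 891 CPM in males (-4.41 ± 0.57, adjusted p = 2.63e-04). Hsd3b5, a male-biased steroid reductase, read 1.00, 1.20, 2.27 and 1.19 CPM in females and 167, 86.9, 105 and 97.6 CPM in males (-6.34 ± 0.70, adjusted p = 7.98e-05). Cyp17a1, a steroid hydroxylase and lyase, read 185, 198, 117 and 208 CPM in females and 4.90, 47.0, 7.39 and 8.55 CPM in males (3.37 ± 0.67, adjusted p = 0.00513), with male replicate 2 well above the other males. Hsd17b6, which inactivates androgens, read 410.2, 358, 336 and 387 CPM in females and 231, 172, 92.9 and 135 CPM in males (1.24 ± 0.22, adjusted p = 0.00146). Male values of these 2 genes, Cyp17a1 and Hsd17b6, all lay below the lowest female. Akr1d1, the steroid reductase shared with bile acid synthesis, read 577, 579, 437 and 446 CPM in females and 222, 157, 168 and 194 CPM in males (1.46 ± 0.33, adjusted p = 0.00839). Cyp39a1, an oxysterol hydroxylase, read 129, 135, 86.9 and 153 CPM in females and 43.9, 52.3, 33.3 and 46.6 CPM in males (1.52 ± 0.27, adjusted p = 0.00159). The Hsd3b sum was higher in males (-0.54 ± 0.12, adjusted p = 0.00545).

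The entry enzymes of bile acid synthesis were not called, whereas some later enzymes were. Over bile acid synthesis and transport genes, 5 of 30 tested members were called higher in females and 6 in males (median log2 fold change over the tested members 0.05). Cyp7a1, the rate-limiting enzyme of the classical route, read 523, 244, 406 and 336 CPM in females and 376, 181, 250.1 and 480.4 CPM in males, with wide overlap (0.23 ± 0.33, adjusted p = 0.68). Cyp27a1, the first enzyme of the alternative route, also overlapped (0.06 ± 0.17, adjusted p = 0.838). Cyp8b1, which directs synthesis to cholic acid, read 111, 152, 207 and 179 CPM in females and 431, 306, 199 and 483 CPM in males, and male replicate 3 lay within the female range (-1.13 ± 0.34, adjusted p = 0.0338). Cyp8b1 was no longer called without female replicates 1, 2 or 4 or without male replicates 1, 2 or 4 or with no filter on low counts (adjusted p from 0.0531 to 0.115). Scp2, which shortens the sterol side chain in peroxisomes, read 2523, 2941, 2683 and 3018 CPM in females and 5423, 5599.9, 5499 and 5927 CPM in males (-1.01 ± 0.11, adjusted p = 1.06e-05). Bile acid calls numbered 5 without female replicates 1 or 2 or without male replicate 4, 6 without female replicate 4 and 7 without male replicates 1, 2 or 3 or with no filter on low counts.

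Cholesterol synthesis genes leaned toward females: 9 of 26 tested members were called, all higher in females (median log2 fold change over the tested members 0.51). Pmvk, a mevalonate pathway kinase, read 41.9, 27.2, 41.6 and 30.7 CPM in females and 22.2, 15.98, 15.3 and 15.7 CPM in males (1.03 ± 0.18, adjusted p = 8.46e-04). The libraries did not overlap for Pmvk. Fdft1, the squalene synthase, read 165, 128, 191 and 161 CPM in females and 107, 81.6, 100.4 and 105 CPM in males (0.71 ± 0.15, adjusted p = 0.00384). Sqle, the next enzyme, read 89.6, 54.0, 98.7 and 106 CPM in females and 48.5, 45.0, 68.8 and 60.2 CPM in males and was not called (0.65 ± 0.40, adjusted p = 0.298).

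In fatty acid synthesis, elongation and desaturation, 4 of 22 tested members were called higher in females and 2 in males (median log2 fold change over the tested members 0.21). Acacb, the acetyl-CoA carboxylase of the mitochondrial surface, read 53.2, 46.5, 85.5 and 68.4 CPM in females and 27.8, 19.4, 28.1 and 38.2 CPM in males (1.16 ± 0.21, adjusted p = 0.00187). Acly, which supplies cytosolic acetyl-CoA, read 141, 142, 228 and 164 CPM in females and 123, 112, 120.1 and 96.2 CPM in males (0.58 ± 0.15, adjusted p = 0.0147). Fasn, the fatty acid synthase, read 116, 74.6, 199 and 160.0 CPM in females and 77.9, 50.3, 95.5 and 51.9 CPM in males, with overlap (1.00 ± 0.38, adjusted p = 0.0875), and was called with DESeq2's Wald test (adjusted p = 0.0413). Scd1, the main desaturase, had -0.19 ± 0.92 (adjusted p = 0.917), with female replicate 3 and male replicate 2 high in their groups. Elovl3, an elongase of very long chains, was higher in males, with 6.34, 16.2, 12.6 and 11.6 CPM in females and 94.3, 66.0, 46.7 and 65.4 CPM in males (-2.54 ± 0.49, adjusted p = 0.00457).

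**Figure D4:**
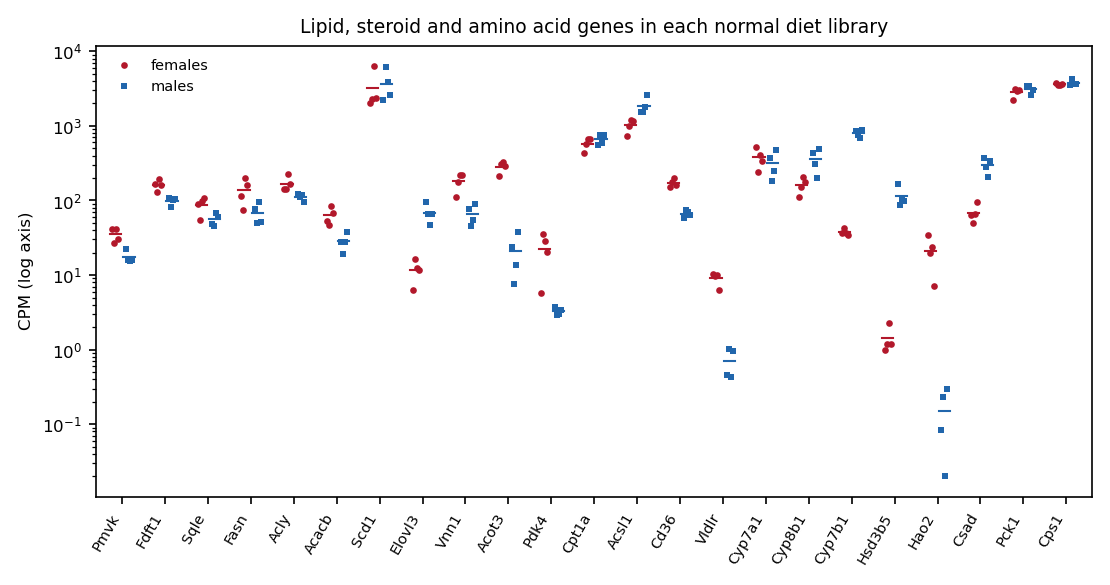
Level of 23 genes of lipid, steroid and amino acid metabolism in each normal diet library (CPM, log axis): red circles are the 4 females, blue squares the 4 males and short bars the means; values below 0.02 CPM are drawn at 0.02. Pmvk, Acacb, Acot3, Pdk4, Cd36, Vldlr and Hao2 lie higher in females, Elovl3, Cyp7b1, Hsd3b5 and Csad higher in males, and Cyp7a1, Scd1, Cpt1a, Pck1 and Cps1 overlap.

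Genes for fatty acid oxidation and ketogenesis also leaned toward females, and 15 of 47 tested members were called higher in females and 1 in males (median log2 fold change over the tested members 0.33). Acot3, a peroxisomal acyl-CoA thioesterase, read 211, 306, 329 and 286 CPM in females and 23.4, 7.48, 13.5 and 38.4 CPM in males (3.77 ± 0.83, adjusted p = 0.00913). The Acot1 to Acot5 sum, which avoids the split between copies, differed by 2.10 ± 0.44 (adjusted p = 0.00663). Vnn1, a pantetheinase, read 112, 175, 217 and 217 CPM in females and 76.7, 46.0, 54.8 and 89.2 CPM in males (1.43 ± 0.27, adjusted p = 0.00241). Pdk4, a kinase that shuts off pyruvate dehydrogenase, read 5.78, 35.7, 28.7 and 20.6 CPM in females and 3.71, 2.88, 2.98 and 3.44 CPM in males, with female replicate 1 nearest the males (2.80 ± 0.52, adjusted p = 0.00316). For Acot3, Vnn1 and Pdk4 the lowest female still exceeded the highest male. Ucp2, a mitochondrial carrier, read 32.1, 34.9, 36.8 and 28.5 CPM in females and 14.1, 16.7, 17.4 and 17.4 CPM in males (1.01 ± 0.14, adjusted p = 9.78e-05). The gate of mitochondrial uptake, Cpt1a, overlapped at 428, 570.1, 661 and 659 CPM and 563, 765, 582 and 756 CPM (-0.20 ± 0.14, adjusted p = 0.345). Acsl1, which activates long-chain fatty acids, was the list's male exception at 1549, 1525, 1819 and 2566 CPM against 738, 987, 1219 and 1153 CPM in females (-0.86 ± 0.23, adjusted p = 0.0163). Acsl1 was no longer called without female replicates 1 or 2 or without male replicate 4 (adjusted p from 0.0521 to 0.0606). Calls for fatty acid oxidation numbered 8 without female replicate 2 or without male replicate 3 and 9 without male replicate 4.

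For glycerolipids, lipid droplets and lipoproteins, 10 of 55 tested members were called higher in females and 3 in males (median log2 fold change over the tested members 0.11). Cd36, a fatty acid uptake receptor, read 153, 179, 200.1 and 161 CPM in females and 58.1, 75.5, 69.997 and 63.0 CPM in males (1.38 ± 0.23, adjusted p = 0.00102). Vldlr, a receptor for triglyceride-rich lipoproteins, read 10.4, 9.84, 10.1 and 6.28 CPM in females and 0.453, 1.03, 0.432 and 0.947 CPM in males (3.61 ± 0.46, adjusted p = 1.26e-04). Gpat3, a first enzyme of glycerolipid synthesis, read 28.6, 41.6, 34.9 and 36.1 CPM in females and 10.9, 21.3, 16.03 and 17.9 CPM in males (1.09 ± 0.17, adjusted p = 3.11e-04). Plin2, the coat protein of lipid droplets, overlapped at 225, 394, 477 and 393 CPM and 267, 449, 341 and 369.9 CPM (0.06 ± 0.20, adjusted p = 0.874).

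Carbohydrate metabolism had few calls: in glycolysis, gluconeogenesis and glycogen metabolism, 1 of 33 tested members was called higher in females and 2 in males (median log2 fold change over the tested members 0.09). Pfkfb3, which raises the glycolytic activator fructose bisphosphate, read 14.9, 12.5, 13.8 and 14.6 CPM in females and 62.9, 29.9, 77.5 and 32.9 CPM in males (-1.86 ± 0.31, adjusted p = 0.00127). Pck1, the gluconeogenic carboxykinase, overlapped at 2226, 3148, 2941 and 3069.5 CPM and 3425, 3424, 2567 and 3071 CPM (-0.13 ± 0.20, adjusted p = 0.683). Carbohydrate calls numbered 1 without female replicate 2 or without male replicates 2 or 4, 5 without male replicate 1 or with DESeq2's Wald test and 9 with only the 8 normal diet libraries in the fit.

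Of 18 tested genes for the urea cycle and ammonia handling, only the ammonia transporter gene Rhbg, a pericentral marker, was called (median log2 fold change over the tested members 0.16). It read 6.23, 7.36, 6.95 and 7.27 CPM in females and 3.42, 3.60, 4.23 and 3.87 CPM in males (0.88 ± 0.19, adjusted p = 0.00476). Calls in that group of genes numbered 2 without male replicate 2 or with DESeq2's Wald test or with library totals in place of TMM factors or with only the 8 normal diet libraries in the fit or on both log2 TPM scales. Cps1, the entry enzyme, read 3777, 3570.0, 3487 and 3699.8 CPM in females and 3539, 4258, 3618 and 3651 CPM in males (-0.05 ± 0.13, adjusted p = 0.829). Ass1 had 0.37 ± 0.21 (adjusted p = 0.247) and Arg1 0.26 ± 0.16 (adjusted p = 0.276). Without male replicate 2, Ass1 was called higher in females (0.63, adjusted p = 0.046). For the 10 pericentral hepatocyte markers, summed TPM was 9723 to 10523.5 in females and 6153 to 8957 in males. Cyp2e1, not called, made up most of that sum (means of 8169 and 6482 TPM). Lect2 and Rhbg were called higher in females. Of the pericentral markers not called, Lgr5 and Tbx3 leaned toward males (-0.17 and -0.30). Cyp2e1, Glul, Oat, Slc1a2, Axin2 and Cyp1a2 leaned toward females, Cyp1a2 by 0.04. The 10 periportal markers summed to 7863 to 9045 TPM in females and 6894 to 10387 TPM in males, with Cyp2f2 called higher in males. Of the periportal markers not called, Ass1, Arg1, Gls2, Hal and Sds leaned toward females (0.37, 0.26, 0.24, 0.23 and 0.20). Cps1, Pck1, Hsd17b13 and Cdh1 leaned toward males (-0.05, -0.13, -0.30 and -0.78). The part of zonal makeup was not tested.

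In amino acid catabolism, 10 of 46 tested members were called higher in females and 1 in males (median log2 fold change over the tested members 0.15). Hao2, a peroxisomal hydroxyacid oxidase, read 34.5, 19.7, 24.1 and 7.07 CPM in females and 0.0824, 0.228, 0 and 0.298 CPM in males (6.91 ± 0.75, adjusted p = 6.09e-05). Hao1, the liver glycolate oxidase, went the other way with 239, 187, 231 and 248 CPM in females and 421, 322, 392 and 376 CPM in males (-0.74 ± 0.13, adjusted p = 0.00132). Dpys, which degrades pyrimidines and opens cyclic drugs, read 330.1, 334, 345 and 346 CPM in females and 214, 158, 161 and 183 CPM in males (0.92 ± 0.20, adjusted p = 0.00456). Amino acid calls numbered 7 without female replicate 2.

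In methionine, taurine and glutathione metabolism, 5 of 28 tested members were called higher in females and 3 in males (median log2 fold change over the tested members 0.14). Csad, which makes the taurine precursor hypotaurine, read 64.6, 49.7, 65.3 and 94.7 CPM in females and 367, 280.3, 209 and 342 CPM in males (-2.13 ± 0.37, adjusted p = 0.00216). Cdo1, the enzyme before it, read 1888, 1704, 1286 and 1505 CPM in females and 1426, 1053, 948 and 1005 CPM in males and was not called (0.53 ± 0.18, adjusted p = 0.0525). In 10 of 19 other settings Cdo1 was called higher in females, among them those without female replicate 3 (adjusted p = 0.0361) and without male replicate 1 (adjusted p = 0.0188). Gnmt, the glycine methyltransferase that disposes of methyl groups, had 0.54 ± 0.22 (adjusted p = 0.0967). Ggct, an enzyme of glutathione breakdown, read 8.08, 9.17, 7.57 and 6.99 CPM in females and 4.49, 4.77, 4.75 and 3.98 CPM in males (0.82 ± 0.12, adjusted p = 2.4e-04). Sulfur amino acid calls numbered 5 without female replicate 2 and 13 with only the 8 normal diet libraries in the fit.

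Antioxidant genes known as targets of NRF2 were mostly higher in males where called: 1 of 24 tested members was called higher in females and 4 in males (median log2 fold change over the tested members -0.18). Gsr, the glutathione reductase, read 44.2, 47.7, 53.8 and 51.0 CPM in females and 72.4, 78.7, 71.4 and 79.1 CPM in males (-0.62 ± 0.08, adjusted p = 7.7e-05). Osgin1 read 28.3, 38.9, 38.5 and 34.1 CPM in females and 67.1, 77.9, 100.3 and 62.4 CPM in males (-1.14 ± 0.26, adjusted p = 0.00763). Nqo1, a quinone reductase, was the female exception at 13.9, 12.9, 12.0 and 12.0 CPM in females and 8.52, 5.62, 4.06 and 6.42 CPM in males (1.04 ± 0.28, adjusted p = 0.0193). Nqo1 was no longer called without female replicates 1 or 2 or without male replicates 2 or 3 or with no filter on low counts (adjusted p from 0.0511 to 0.0704). Gclc, the catalytic subunit of glutathione synthesis, read 164, 184, 220.5 and 158 CPM in females and 307, 244, 293 and 287 CPM in males, without overlap, but was not called (-0.64 ± 0.22, adjusted p = 0.0528). Without female replicate 3, Gclc was called higher in males (-0.73, adjusted p = 0.0469), as it was with only the 8 normal diet libraries in the fit, with male high fat replicates 2 and 3 averaged and with DESeq2's Wald test (adjusted p = 0.00359, 0.0423 and 0.0262). Antioxidant calls numbered 2 with no filter on low counts, 3 without female replicate 1 or without male replicate 2, 9 with DESeq2's Wald test and 10 with only the 8 normal diet libraries in the fit.

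For nuclear-encoded oxidative phosphorylation subunits, 6 of 72 tested members were called, all higher in females (median log2 fold change over the tested members 0.25). That share of 8.33% was below the 15.8% called over all tested autosomal genes and near the 7.05% called higher in females. Ndufa7, a complex I subunit, read 64.9, 52.1, 44.0 and 45.2 CPM in females and 44.2, 29.7, 25.6 and 29.0 CPM in males, with male replicate 1 inside the female range (0.68 ± 0.16, adjusted p = 0.00732). Oxidative phosphorylation calls numbered 1 without female replicates 1 or 2 or without male replicates 2, 3 or 4, 10 with DESeq2's Wald test, 13 on the log2(TPM + 1) scale, 14 on the log2(TPM + 0.1) scale and 39 without male replicate 1. Counts of mitochondrially encoded genes took 5.88% ± 0.591 (SD, n = 4) of the library in females and 6.68% ± 0.501 in males (exact two-sided permutation p = 0.0857, adjusted 0.171).

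In retinoid, haem, iron and vitamin handling, 10 of 33 tested members were called higher in females and 1 in males (median log2 fold change over the tested members 0.23). Hamp2 (ENSMUSG00000056978.9, chromosome 7), a relative of the iron hormone hepcidin, read 175, 124, 135 and 72.4 CPM in females and 1.89, 3.14, 0.648 and 1.35 CPM in males (6.14 ± 0.94, adjusted p = 0.00112). Tfrc, the transferrin receptor, was higher in males at 36.9, 36.6, 48.4 and 48.7 CPM against 33.4, 15.8, 17.7 and 22.4 CPM in females (-0.93 ± 0.21, adjusted p = 0.0069). Rdh9, a retinol and steroid dehydrogenase, read 239, 208, 134 and 182 CPM in females and 117, 64.5, 79.4 and 95.8 CPM in males (1.10 ± 0.21, adjusted p = 0.00233). Lrat, which esterifies retinol in stellate cells, read 29.4, 30.4, 35.8 and 30.3 CPM in females and 16.7, 17.4, 17.4 and 19.4 CPM in males (0.83 ± 0.16, adjusted p = 0.0025). Lrat had the same direction as the summed stellate markers given above, a sum made up mostly of Dcn. Col1a1, Col3a1 and Pdgfrb had the opposite sign, and the part of cell number was not tested. Retinoid, haem and iron calls numbered 6 without female replicate 2 and 7 without female replicate 4 or without male replicates 2, 3 or 4.

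Clock genes were listed because the hour of collection is not known here, and 1 of 18 tested members was called higher in females and 4 in males (median log2 fold change over the tested members -0.37). Bhlhe41, a repressor of the clock, read 0.853, 0.521, 1.10 and 0.583 CPM in females and 3.91, 5.59, 4.10 and 3.46 CPM in males (-2.50 ± 0.41, adjusted p = 6.67e-04). Cry2 read 20.7, 20.7, 23.1 and 21.3 CPM in females and 30.3, 28.6, 34.3 and 25.0 CPM in males (-0.46 ± 0.10, adjusted p = 0.00642). Nr1d1, which encodes REV-ERB alpha, read 9.16, 9.99, 16.3 and 17.8 CPM in females and 18.9, 27.2, 18.8 and 29.5 CPM in males (-0.83 ± 0.21, adjusted p = 0.0131). Nr1d1 was no longer called without female replicate 2 (adjusted p = 0.0562). Clock calls numbered 2 without female replicate 2.

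Some of the largest differences fell outside the pathway lists. A1bg, a plasma glycoprotein, read 346, 224, 219 and 35.5 CPM in females and 0.0824, 0.656, 0.0864 and 0.352 CPM in males (9.28 ± 1.03, adjusted p = 8.7e-05), with female replicate 4 the lowest female. Nat8f5, a neighbour of Nat8 in the same acetyltransferase family, read 0.185, 0.153, 0.293 and 0.152 CPM in females and 23.6, 12.1, 23.2 and 22.2 CPM in males (-6.70 ± 0.34, adjusted p = 4.26e-10). For both genes every library of one sex lay above every library of the other. Scara5, a ferritin receptor, read 0.111, 0.184, 0.0732 and 0.0760 CPM in females and 7.70, 21.2, 16.6 and 11.9 CPM in males (-6.96 ± 1.25, adjusted p = 0.00298). Moxd1, a monooxygenase of the dopamine hydroxylase family, was scattered in males, at 0.185, 0.123, 0.366 and 0.380 CPM in females and 17.1, 73.0, 111 and 33.5 CPM in males (-7.75 ± 2.01, adjusted p = 0.0216). Moxd1 was no longer called without female replicates 1, 2, 3 or 4 (adjusted p from 0.0514 to 0.0703). Exons of 47 of the 186 genes covered by the naming rule overlap another annotated gene, for 39 of them on the other strand, and the strand setting of the counts is not given in the sources used here. Among genes named above, Csad overlaps Zfp740, Fdft1 overlaps Ctsb, Abcg5 overlaps Abcg8 and Nr1d1 overlaps Thra on opposite strands, so their reads may be mixed.

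The sex difference was then read in the high fat libraries, which share no sample with the normal diet libraries. Male high fat replicates 2 and 3 differed by a chi-square of 4.07 per gene, against 20.85 to 307.9 for the other pairs within a group. Their labels list them as separate samples and their counts differed by more than sampling noise, so both were kept and n = 4 counts both, but they may not be independent. Averaged into 1 library, they left 2416 high fat calls and 55 interaction calls in place of the counts given next. On that diet 2813 autosomal genes were called (20.7%), 1219 higher in females (8.97%) and 1594 higher in males (11.7%). With library totals in place of TMM factors, 2173 of 3121 calls (69.6%) were higher in females, and the median over all genes shifted by 0.12 on the log2 scale, so the split of the high fat calls depends on the scaling. On the log2(TPM + 0.1) and log2(TPM + 1) scales the female-higher share was 80.5% and 80.9%. Of the 2148 genes called on the normal diet, 1945 (90.5%) had the same direction on the high fat diet, 1005 (46.8%) were called in it and 21 were called in the opposite direction. Among 11439 genes not called on the normal diet, 68.7% had the same direction. Of the 246 listed genes called on the normal diet, 220 kept their direction, 143 were called in it and 4 were called in the opposite direction. The difference between the 2 diets was itself tested with an interaction term, normal minus high fat. It was called for 94 autosomal genes (0.692%), positive for 57 (0.42%) and negative for 37 (0.272%). The positive share was 60.6%, but 41.1% with library totals and 37.0% and 36.5% on the log2(TPM + 0.1) and log2(TPM + 1) scales. That count was 49 without female normal diet replicate 2, 55 without female normal diet replicate 4, 55 without male high fat replicate 3, 59 without male high fat replicate 2 and 165 without male high fat replicate 1.

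Interaction calls touched 8 of those 246 listed genes, and 48 of all 2148 autosomal genes called on the normal diet. Among the 8 listed genes were Csad, Cyp2c40, Gpat3, Nr1d1, Slco2a1, Sult1e1 and Sult2a7, the last chosen after its values were seen. Cyp2c40 was higher in females on both diets and differed more on the high fat diet, with 738 ± 166 CPM in females and 1.504 ± 0.859 CPM in males (mean ± SD, n = 4) and a log2 fold change of 8.94 ± 0.48 (interaction -3.22 ± 0.51, adjusted p = 0.00638). Sult1e1 turned from higher in females to higher in males, at 0.647 ± 0.252 CPM in females and 2.10 ± 1.04 CPM in high fat males (-1.69 ± 0.44, adjusted p = 0.0124, interaction 4.08 ± 0.64, adjusted p = 0.00582). Slco2a1, a prostaglandin carrier, was higher in males on the normal diet (-0.56 ± 0.10, adjusted p = 0.00116) and higher in females on the high fat diet (1.11 ± 0.10, adjusted p = 8.67e-07, interaction adjusted p = 5.54e-06). The clock gene Nr1d1 changed sign, with 2.88 ± 0.22 on the high fat diet (interaction adjusted p = 5.54e-06). Csad was not called on the high fat diet (adjusted p = 0.0841), with 69.6 ± 35.8 CPM in females and 36.4 ± 11.2 CPM in males there (interaction -3.06 ± 0.52, adjusted p = 0.0145). Gpat3 had -0.05 ± 0.16 on the high fat diet (interaction adjusted p = 0.0274). The interaction call of Gpat3 was lost without female normal diet replicates 2 or 4 or without male normal diet replicate 3 or without female high fat replicates 1 or 4 or on both log2 TPM scales (adjusted p from 0.0526 to 0.109). The Cyp3a sum, which did not separate the sexes on the normal diet, was higher in females by 2.06 ± 0.25 on the high fat diet (interaction -1.97 ± 0.35, adjusted p = 0.0114).

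**Figure D5:**
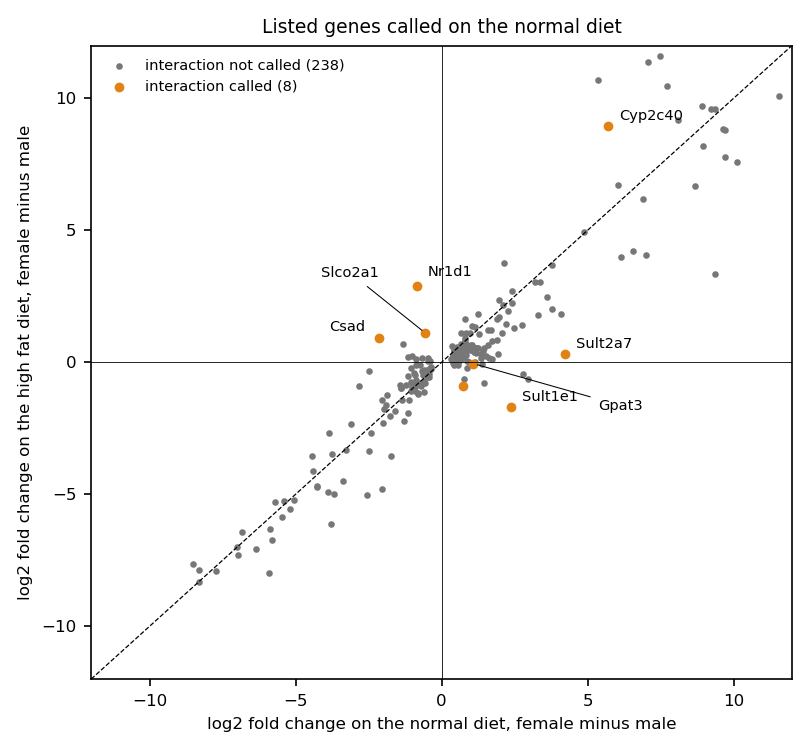
Each point is 1 of the 246 listed genes called on the normal diet: the x axis is its log2 fold change, female minus male, on the normal diet and the y axis that on the high fat diet (4 libraries per sex and diet). Orange points are the 8 with a called interaction, 7 of them labelled, the dashed line marks equal differences, and 220 of the genes have the same sign on both axes.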

How the data were processed

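Poly(A) RNA from 16 mouse livers was measured, and the 8 normal diet libraries carry the comparison. The authors deposited RSEM expected counts and TPM per gene, made with STAR and RSEM on GRCm39 per the submitters' processing notes. Versions, annotation and strand setting are not given in the sources used here. Expected counts were rounded to whole numbers. Library totals were 24569706 to 41420589 counts on the normal diet, so genes with few counts carry the largest errors.

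Genes were tested with edgeR 4.0.16 in R 4.3.3 (filterByExpr by group, TMM scaling, robust quasi-likelihood fit, 1 mean per sex and diet, all 16 libraries), with Benjamini-Hochberg adjustment over 14781 genes. The test was checked on simulated data. Chromosomes came by gene identifier from the supplied annotation. The 743 tested genes without one, 95 of them called, and genes on X, Y and the mitochondrial genome were left out. Library shares were compared by exact permutation tests (scipy 1.17.1). Promoters are from RefSeq GRCm38.p6, a different build from the counts, and were matched by symbol.

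Named genes are the 10 largest differences in each direction among called genes whose mean level reached 1 on the log2 CPM scale and whose sexes did not overlap, the 3 called members with the smallest p per list and direction, every called regulator, a set of textbook genes whatever their values, and the 5 listed genes with the smallest interaction p among those called. A few results these rules would name are not reported here. The lists and names were chosen with earlier results of these data known. Alternatives were DESeq2 1.42.0, its size factors, library totals, log2(TPM + 1) and log2(TPM + 0.1) with limma 3.58.1, other filters, only the groups compared, a replicate block, adjustment over autosomal genes alone, averaging male high fat replicates 2 and 3, and leaving out each library.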

Additional observations from a re-analysis of the deposited data

Results flagged for a closer look

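For 16 of 311 sets of 4 libraries (genes named in the report, family sums and library measures), the highest or lowest library stood farther from the other 3 than Dixon's 95% limit allows. Chance alone gives about 1 in 20. In males, replicate 4 was high for Bcl6 (38.7 CPM, the others 7.69 to 9.88) and Igf1 (883 CPM, the others 692 to 699.5). It was also high for Sult2a2 (2.35 CPM). Male replicate 2 was high for Cyp17a1 (47.0 CPM, the others 4.90 to 8.55), Ass1 (4195 CPM), Cps1 (4258 CPM) and Slco2a1 (66.7 CPM), and low for Nat8f5 (12.1 CPM). Male replicate 1 was high for Pmvk (22.2 CPM) and Slc22a28 (28.0 CPM). In females, replicate 3 was high for Scd1 (6357 CPM, the others 2026 to 2338), Ces3a (811 CPM), Hsd3b5 (2.27 CPM) and Lrat (35.8 CPM). Female replicate 1 was low for Abcg8 (99.8 CPM). Female replicate 4 was low for Vldlr (6.28 CPM). With Sult2a2, Cyp17a1, Pmvk, Nat8f5, Vldlr, Ces3a, Hsd3b5, Lrat and Slc22a28 the sexes still did not overlap.

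The sex difference itself differed between the diets, by the interaction term of edgeR's quasi-likelihood test, for 6 named genes and 1 family sum. Normal minus high fat differences of the log2 fold change were -3.06 for Csad, -3.22 for Cyp2c40, 1.14 for Gpat3, -3.71 for Nr1d1, -1.67 for Slco2a1, 4.08 for Sult1e1 and -1.97 for the Cyp3a sum.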

How the results depend on the processing

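The 2148 calls on the normal diet ranged from 1214 to 2326 when 1 library was left out, and the other settings gave 1636 to 2681. Calls of at least 2-fold numbered 296 on the log2(TPM + 1) scale, and 469 to 636 with 1 library left out. High fat calls numbered 1808 with only the groups compared and 1820 to 2817 with 1 library left out. Interaction calls numbered 310 with DESeq2's Wald test, 55 with male high fat replicates 2 and 3 averaged and 49 to 165 with 1 library left out, and the cause of these moves was not tested. Male high fat replicates 2 and 3 were averaged because they differed far less than any other pair. Same-numbered females and males correlated at 0.164, 0.097, 0.050 and 0.096 in their deviations from the group means. Females 1, 2 and 4 correlated best with the male of their own number, and female replicate 3 with male replicate 4 (0.093). As 3 of the 4 correlations were under 0.1 and the labels name no shared litter or day, the numbers were not taken to pair the samples, though a weak pairing is possible. With a replicate block 2499 genes were called on the normal diet (1114 higher in females, 1385 in males), Ces1g, Hmox1 and Slco1a1 lost their call (adjusted p = 0.0624, 0.0586 and 0.0555), and Stat5b and Gclc gained one (0.0298 and 0.0352). The interaction of Csad was not called with the block (adjusted p = 0.0622), and those of the other named genes and the Cyp3a sum were. In the block fit, called bile acid genes numbered 7 and called oxidative phosphorylation genes 19. Of 3533 values of the 186 named genes under other settings, 3358 kept direction and side of the threshold, 150 values of 31 genes lost the call, 25 values of 9 genes gained one and none reversed. For the family sums 241 of 253 values kept both. Depth limits genes near 1 CPM and below, such as Sult1e1 and Bhlhe41.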
